A study of Mus musculus with 8 samples.

Results

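The nuclear-encoded subunits of the respiratory chain and ATP synthase were compared between the P3 cortices of 4 dcKO_hGFAP-Cre mutants and 4 controls. Members were the protein-coding genes whose symbols begin with Ndufa, Ndufb, Ndufc, Ndufs or Ndufv and a digit, with Uqcr, with Cox4 to Cox8 or with Atp5, together with Sdha, Sdhb, Sdhc and Sdhd. This rule found 84 of the 48709 genes listed in the count files, and 81 of them were among the 16525 genes with enough counts to be tested. Cox7b2, Cox8b and Cox8c were not tested. By complex, 35 tested members belong to complex I, 4 to complex II, 8 to complex III, 17 to complex IV and 16 to ATP synthase (complex V). Ndufa4 and its paralog Ndufa4l2 were placed with complex IV, where Ndufa4 is known to sit despite its name. Atp5s, coupling factor B, matches the rule but is not a subunit, and was kept in the total and left out of the complexes.

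Mutants carried BAF155 fl/fl and BAF170 fl/fl alleles and the hGFAP-Cre transgene on a C57BL/6J background, and the labels call them BAF cKO. BAF155 (Smarcc1) and BAF170 (Smarcc2) are scaffolding subunits of the BAF chromatin remodeling complex. Controls are called wild type in the labels. The breeding described for the study yields BAF155 fl/+; BAF170 fl/+ animals with Cre as controls, so controls of that kind lack 1 copy of each gene in recombined cells. hGFAP-Cre acts in radial glial progenitors of the dorsal telencephalon and so reaches the cells born from them afterwards. Cells born before Cre acts, microglia, blood vessels and cells that enter from regions where Cre did not act keep both genes. Postnatal day 3 tissue was sequenced in bulk. In such samples, fewer cells of a type and less RNA per cell cannot be told apart.

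The respiratory chain sits in the inner mitochondrial membrane. Complexes I and II pass electrons from NADH and succinate to coenzyme Q, complex III passes them on to cytochrome c, and complex IV hands them to oxygen. Complexes I, III and IV pump protons as they do so, and ATP synthase uses the return of the protons to make ATP. Most subunits are encoded in the nucleus and a small number in mitochondrial DNA, so the complexes draw on both genomes. The developing cortex shifts from glycolysis towards oxidative metabolism as neurons mature, and some complex IV subunits have second isoforms that are typical of muscle, testis or lung.

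Promoters of nuclear respiratory genes often hold sites for NRF1, for ETS family factors such as GABPA, and for YY1. RefSeq promoter windows (GRCm38.p6, the build of the files) of 250 bases before to 50 bases after the gene start were found for 68 of the 84 members and for 27025 genes in all. The letters GCGCATGCG, taken for NRF1 and read on both strands like every motif here, were in 8 member windows (11.8%) and in 1.95% of all windows. The shorter form GCATGCG, which lies inside the first, was in 11 member windows (16.2%) against 4.01% of all. CCGGAAG, taken for ETS factors, was in 16 (23.5%) against 9.93%, and AAGATGGCG, taken for YY1, was in 7 (10.3%) against 1.64%. At least 1 of the 4 was in 27 member windows (39.7%) and in 14.4% of all. Among the tested members with a window, CCGGAAG was in 10 of the 40 that were higher in mutants by the test described next and in 6 of the other 26. The longer NRF1 form was in 3 of the 40 and in 5 of the 26. These are matches of letters, not shown binding sites.

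The sequences below are given because each belongs to the member with the largest significant rise in its complex among those with a motif match outside annotated exons, which no complex IV member met. They run 5′ to 3′ on the gene strand, which is the minus strand for all 4, and capitals mark the matched letters. Annotated exons at either end were trimmed. Ndufb6, an accessory subunit of complex I, has an ETS match that begins at base -232 from the gene start, in chr4:40279422-40279671. In Sdhd, a membrane anchor of complex II, the ETS match begins at base -46, in chr9:50603850-50603909. Uqcrh, the hinge protein of complex III, has it at base -10, in chr4:116075072-116075268. Atp5l, subunit g of the membrane part of ATP synthase, has an NRF1 match from base -241 and an ETS match from base -212, in chr9:44920752-44920992.
Ndufb6: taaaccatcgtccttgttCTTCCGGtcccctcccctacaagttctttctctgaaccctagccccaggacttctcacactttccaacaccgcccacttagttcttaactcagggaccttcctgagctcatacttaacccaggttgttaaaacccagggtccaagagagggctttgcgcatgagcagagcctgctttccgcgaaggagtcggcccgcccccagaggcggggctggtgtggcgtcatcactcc
Sdhd: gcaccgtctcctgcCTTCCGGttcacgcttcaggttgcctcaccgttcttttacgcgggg
Uqcrh: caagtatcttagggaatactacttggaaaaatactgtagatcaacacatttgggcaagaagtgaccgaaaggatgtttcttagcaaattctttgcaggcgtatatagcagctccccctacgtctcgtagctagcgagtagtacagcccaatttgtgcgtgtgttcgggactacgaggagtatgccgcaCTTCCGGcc
Atp5l: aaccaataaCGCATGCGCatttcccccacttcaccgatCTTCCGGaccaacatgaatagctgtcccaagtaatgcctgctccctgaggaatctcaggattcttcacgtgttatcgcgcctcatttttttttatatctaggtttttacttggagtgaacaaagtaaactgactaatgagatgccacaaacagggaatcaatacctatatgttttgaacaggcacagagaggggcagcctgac

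Levels are given as CPM, the counts of a gene relative to the library total after TMM scaling, which corrects for differences in library composition. Total counts ran from 21126713 to 31805395 in controls and from 22002784 to 32110285 in mutants, and 3 counts correspond to at most 0.148 CPM. Nothing in the labels says that samples of a group came from separate litters, so p-values measure the spread between these samples. Both deleted genes were lower in every mutant. Smarcc1 averaged 159 ± 11.2 CPM over controls and 81.2 ± 5.90 CPM over mutants (SD, n = 4 each), and Smarcc2 fell from 483 ± 14.7 to 283 ± 28.2 CPM. Their log2 fold changes of -0.97 (SE 0.08) and -0.77 (SE 0.08) were measured over whole genes, deleted part included, in tissue that also holds cells in which Cre did not act. Of the fixed markers, those of cortical neurons summed to 3004 to 3180 CPM in controls and 1762 to 1998 CPM in mutants, and 8 of the 10 were lower. Choroid plexus markers summed to 2.89 to 12.6 CPM in controls and to 611, 1172, 22.1 and 6.97 CPM in mutants 1 to 4, with 2 of 5 tested higher. Microglia markers (82.1 to 109 against 155 to 191 CPM, 5 of 6 higher) and striatal neuron markers (116 to 162 against 348 to 643 CPM, 3 of 6 higher) were above the controls in every mutant, and those of oligodendrocyte precursors were below (367 to 400 against 220 to 295 CPM, 5 of 5 lower), as were those of endothelium (144.0 to 189 against 84.3 to 143.8 CPM, 3 of 5 lower). Radial glia and astrocyte markers lay at 1472 to 1545 CPM in controls. In mutants 1 to 4 they lay at 1192, 1383, 2253 and 1023 CPM, with 1 of 6 higher and none lower. Their median log2 fold change was -0.30. Cycling cell markers lay at 95.4 to 121 against 107 to 125 CPM, with 1 of 5 higher. Red blood cell markers lay at 53.5 to 73.1 against 37.1 to 130 CPM, with none of 5 past the threshold. No marker on these lists was at 0 in all libraries. The part of these cell types in the values of the respiratory chain was not tested.

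Most respiratory chain genes were measured above control level in the mutant cortex. In a quasi-likelihood test of the counts in edgeR, with p-values adjusted by Benjamini-Hochberg over all 16525 genes (threshold 0.05), 46 of 81 members were higher (56.8%) and 1, Cox6a2, was lower. Of all genes tested, 18.6% were higher and 18.9% were lower, together 37.5%. The median log2 fold change over members was 0.36, a 1.29-fold higher level, against 0.02 over all genes, and 74 of the 81 values were above 0. In 26 members every mutant lay above every control, and in 1 every mutant lay below. That happened for 16.7% and 17.7% of all genes. With library totals in place of TMM the median of all genes was 0.15 instead of 0.02, the genes called were 4584 higher and 2102 lower instead of 3074 and 3128, and members stood at 61 higher and 1 lower with a median of 0.49. This excess depended on how the GC content and length of transcripts were treated. With counts offset in each sample for the GC content and length of the transcript, 12 members were higher (14.8%, against 16.7% of all genes) and 5 were lower (6.17%, against 18.1%), with a median of 0.04. This offset, called the length offset below, treats both together, so the part of each was not tested.

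**Figure D1:**
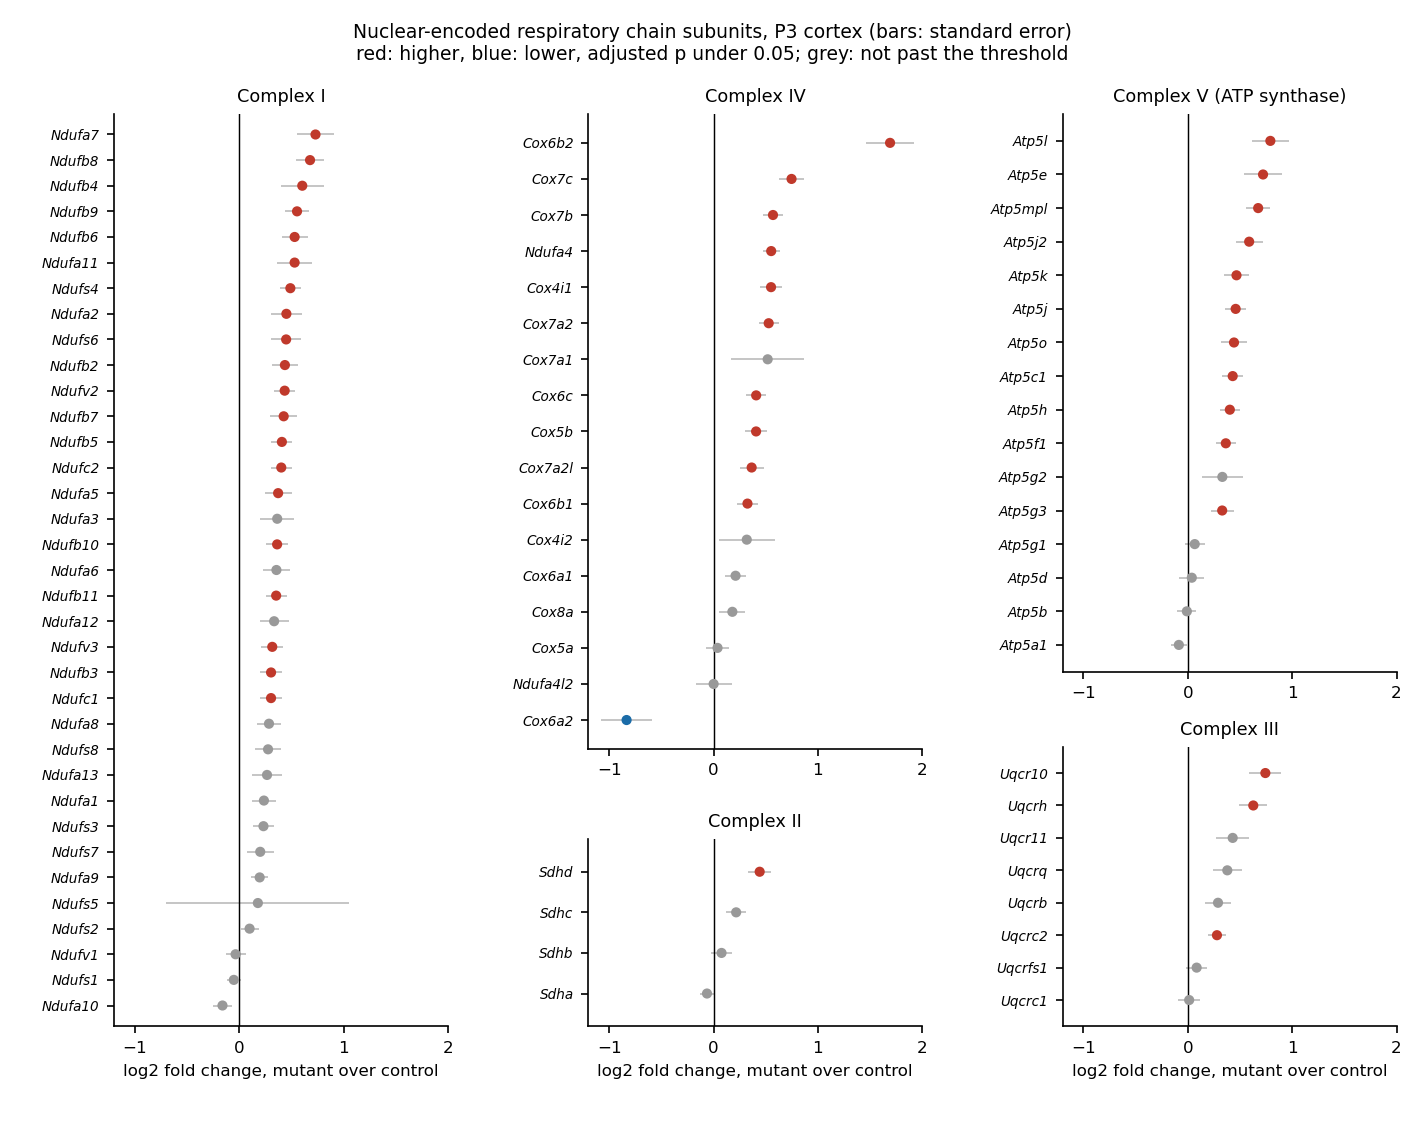
Log2 fold change of each tested subunit, mutant over control, by complex, with bars for 1 standard error. Red points passed the test as higher, the single blue point (Cox6a2) as lower, and grey points did not pass. In complexes I, II and V the lowest points are long members such as Ndufa10, Sdha and Atp5a1.

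Respiratory chain transcripts are short, and short transcripts as a class were higher in mutants. Over all genes with a transcript of at most 500 bases the median log2 fold change was 0.52 (273 genes), followed by 0.36 from 500 to 1000 bases (1028 genes), 0.18 from 1000 to 2000 (3441 genes), 0.01 from 2000 to 4000 (6714 genes) and -0.13 above 4000 (5024 genes). Members in the same classes had medians of 0.49 (6 members), 0.41 (43), 0.30 (25), -0.06 (5) and 0.25 (2). Between 500 and 1000 bases, 30 of 43 members (69.8%) and 35.9% of all genes were higher by the test. Between 1000 and 2000 bases these shares were 48.0% (12 of 25) and 26.9%, and between 2000 and 4000 bases none of 5 members and 17.2% of all genes were higher. Of the shortest class 3 of 6 members and 21.98% of all genes were higher, and of the longest 1 of 2 and 10.99%. Across the 81 members, Spearman's rho between fold change and length was -0.50, as a description across genes that share the same 8 libraries. Across all 16480 genes with a known length it was -0.32.

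**Figure D2:**
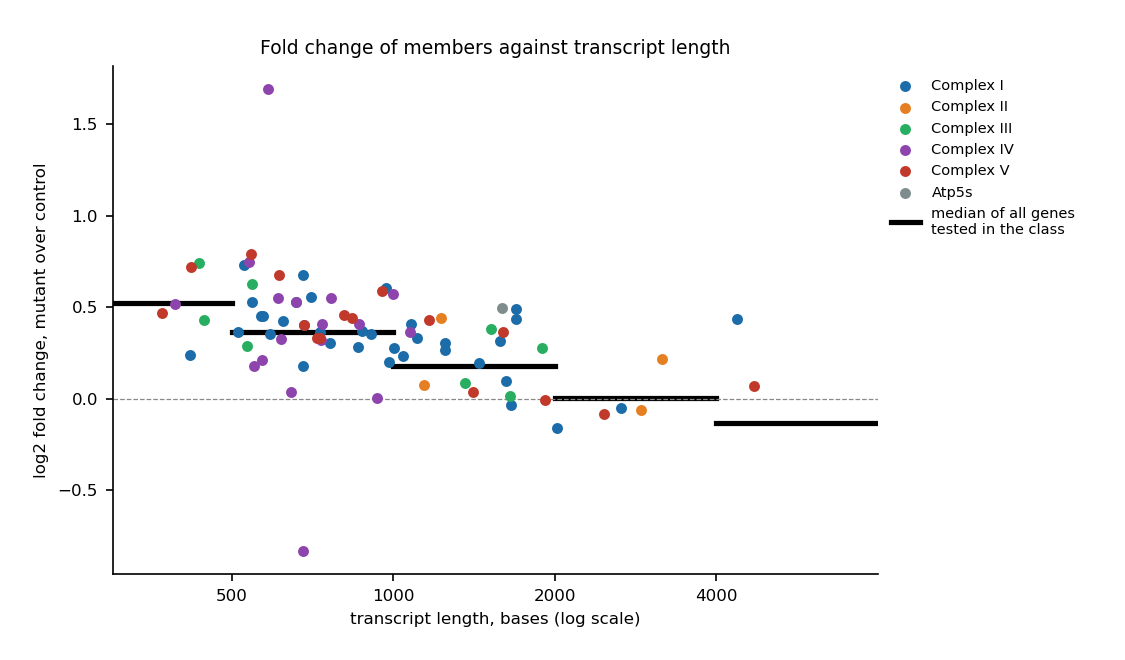
Log2 fold change of each tested member, mutant over control, against the length of its transcript in bases (log axis), colored by complex. Black lines give the median of all genes tested in each of 5 length classes, with the outer classes drawn to the axis limits, and fall from 0.52 to -0.13.

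The mutants did not share the rise equally. Relative to the control mean, the median deviation of the 81 members in log2 CPM was 0.25, 0.53, 0.57 and 0.09 in mutants 1 to 4 and -0.02, -0.14, 0.00 and 0.16 in controls 1 to 4. Mutant 4 was below control 4, and it was the lowest mutant for 73 of 81 members. Control 4 was the highest control for 69 and control 2 the lowest for 61. Mutants 1, 2 and 3 exceeded every control in 53, 68 and 75 members, and mutant 4 in 26. The labels also name a sequencing lane, which holds both groups each time. In lane 5, with 2 controls and 2 mutants, the median difference over members was 0.47 (log2), with 76 of 81 above 0. Lane 6 held 1 sample of each group and gave 0.60, with 77 above 0. Lane 7, with control 4 and mutant 4, gave -0.06, with 27 above 0, so the rise did not hold within that lane. Without mutant 4 the test called 60 members higher, and without control 2 it called 30. Members took 0.783% to 0.942% of all counts in controls and, in mutants 1 to 4, 1.07%, 1.20%, 1.26% and 0.942%. Beside the member medians of 0.25, 0.53, 0.57 and 0.09, choroid plexus markers stood at 611, 1172, 22.1 and 6.97 CPM in mutants 1 to 4, and their part was not tested. Over all 1028 genes with transcripts of 500 to 1000 bases the median deviation was 0.32, 0.46, 0.43 and 0.19 in mutants 1 to 4. In controls 1 to 4 it was 0.02, -0.10, 0.00 and 0.10.

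**Figure D3:**
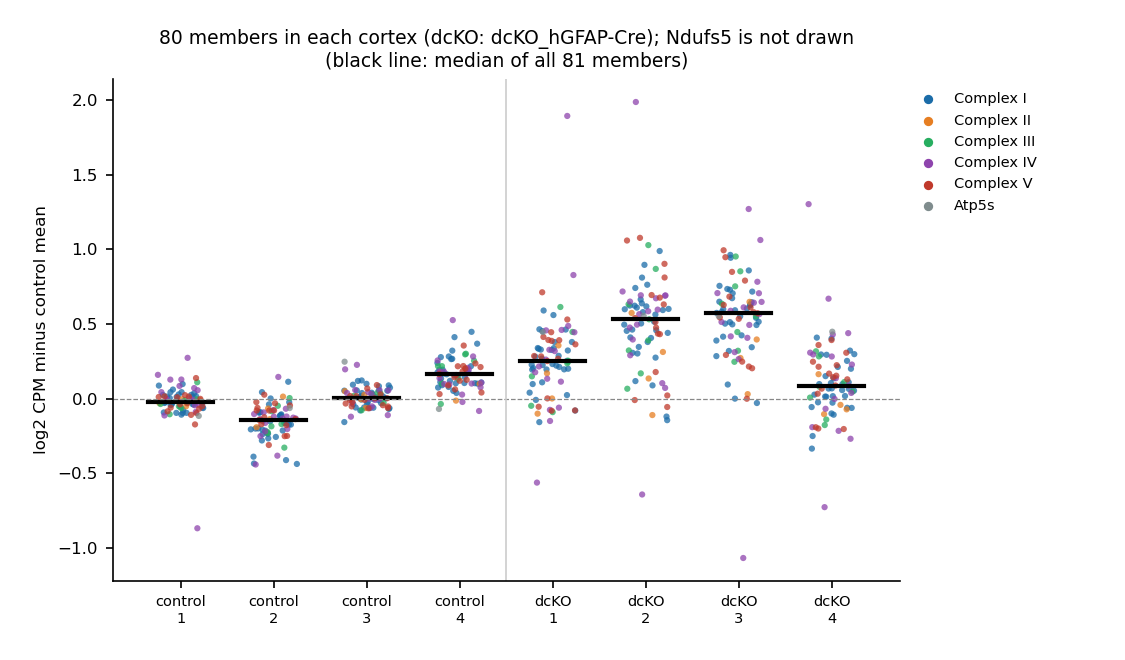
Deviation of 80 members from their control mean in log2 CPM, in each of the 8 cortices, colored by complex, with a black line at the median of all 81. Ndufs5, with 16 counts in mutant 1, is not drawn. Mutants 2 and 3 lie highest, at medians of 0.53 and 0.57, and mutant 4 lies at 0.09, below control 4 at 0.16.

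Complex I takes electrons from NADH. Of its 35 tested members 20 were higher and none was lower, with a median log2 fold change of 0.36. Its 28 accessory subunits, which surround the catalytic center and serve in assembly and stability, held 19 of the 20, with a median of 0.37. Of the 7 core subunits, which carry the NADH site, the flavin and the iron-sulfur clusters, 1 was higher, with a median of 0.20. Core transcripts ran from 983 to 2661 bases, with a median of 1623, and accessory ones had a median of 748. Ndufa7, an accessory subunit of the matrix arm, had the largest change. It was at 65.5, 50.6, 71.4 and 87.0 CPM in controls 1 to 4 and at 101, 134, 131 and 89.5 CPM in mutants 1 to 4. Mutant 4 cleared the highest control by a small margin, and the groups did not overlap. The log2 fold change was 0.73 (SE 0.17, edgeR adjusted p = 0.0088). Ndufb8, an accessory subunit of the membrane arm, was at 76.6, 69.4, 82.5 and 102 CPM in controls and at 121, 152, 149 and 108 CPM in mutants, again without overlap. Its log2 fold change was 0.68 (SE 0.14, edgeR adjusted p = 0.0025). Ndufb9, also of the membrane arm and the complex I member with the highest control level per kilobase of transcript, rose by 0.55 (SE 0.11), with no overlap between groups. Ndufb4 rose by 0.60 (SE 0.21) from a low level, 2.96 to 5.38 CPM in controls and 4.95 to 7.81 in mutants, and these ranges overlapped. The core subunit Ndufs1, which holds iron-sulfur clusters, was at 96.6, 101, 93.8 and 102 CPM in controls and at 97.8, 89.0, 98.4 and 94.6 CPM in mutants. Its log2 fold change was -0.05 (SE 0.07), and the groups overlapped in part, with mutant 2 below every control. Ndufv2, another iron-sulfur subunit, was the core member that rose, by 0.44 (SE 0.10). With the length offset, 6 accessory subunits (Ndufa7, Ndufb2, Ndufb8, Ndufb9, Ndufs4 and Ndufv3) and none of the core were higher, and Ndufa1 and Ndufa10 were lower. The higher ones were 17.1% of complex I, against 16.7% of all genes. Ndufs5 had 160, 116, 411 and 471 counts in controls and 16, 446, 672 and 218 in mutants, a spread that left its log2 fold change of 0.18 with an SE of 0.88.

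Complex II, succinate dehydrogenase, is encoded in the nucleus alone and also works in the tricarboxylic acid cycle. Sdhd, a membrane anchor, was its member past the threshold. It was at 106, 96.4, 101 and 122 CPM in controls and at 136, 158, 166 and 119 CPM in mutants. Mutant 4 fell below control 4, so the groups overlapped, and the log2 fold change was 0.44 (SE 0.11, edgeR adjusted p = 0.0081). The other anchor, Sdhc, was at 0.22 (SE 0.09) and did not pass. The flavin subunit Sdha lay between 197 and 212 CPM in controls and between 189 and 209 CPM in mutants, with a log2 fold change of -0.06 (SE 0.07). The iron-sulfur subunit Sdhb, the member with the highest control level per kilobase, was at 0.08 (SE 0.10). With the length offset no complex II member passed.

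Complex III, the cytochrome bc1 complex, had 3 of 8 tested members higher, none lower and a median of 0.33. Uqcr10, a small accessory subunit, was at 60.9, 54.2, 65.4 and 75.9 CPM in controls and at 97.5, 130, 123 and 79.3 CPM in mutants, without overlap. Its log2 fold change was 0.74 (SE 0.15, edgeR adjusted p = 0.0033). The hinge protein Uqcrh, whose promoter is printed above, was at 97.4, 85.9, 95.8 and 114 CPM in controls and at 133, 179, 177 and 119 CPM in mutants, a log2 fold change of 0.63 (SE 0.14). It had the highest control level per kilobase in the complex. Among the core proteins Uqcrc2 rose by 0.28 (SE 0.09), with mutant 4 inside the control range, while Uqcrc1 had a log2 fold change of 0.01 (SE 0.11) and the Rieske iron-sulfur protein Uqcrfs1 0.09 (SE 0.10). With the length offset Uqcr10 was higher and Uqcrb, a small accessory subunit, was lower.

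Complex IV, cytochrome c oxidase, takes its catalytic subunits from mitochondrial DNA, so every nuclear member is an accessory or regulatory subunit. Of 17 tested members 10 were higher and 1 was lower, with a median of 0.41. Both the largest rise and the single fall over all 81 members were here. Cox6b2 (ENSMUSG00000051811, chr7:4751792-4753094, minus strand), the testis form of subunit 6b, had 30, 19, 34 and 32 counts in controls and 103, 111, 83 and 96 in mutants. That is 0.937 to 1.38 CPM against 2.83 to 4.70 CPM, so every mutant was above every control. Its log2 fold change was 1.69 (SE 0.23, edgeR adjusted p = 1.8e-04), a 3.23-fold difference, and with the length offset it was 1.32. Within lanes 5, 6 and 7 the difference was 1.93, 1.27 and 1.33. Cox6a2 (ENSMUSG00000030785, chr7:128205435-128206387, minus strand), the heart and muscle form of subunit 6a, had 31, 19, 40 and 46 counts in controls and 20, 19, 17 and 25 in mutants. In CPM these were 0.937 to 1.6 against 0.580 to 0.855, so every mutant was below every control although the counts themselves overlapped. Its log2 fold change was -0.83 (SE 0.25, edgeR adjusted p = 0.019), and -1.18 with the length offset. Without control 4 it did not pass. Cox6a2 overlaps Itgad in the annotation, and the library kit does not mark strand, so reads of the 2 genes cannot be told apart where they overlap.

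Among the ubiquitous complex IV subunits, Cox7c was at 7.5, 6.36, 6.21 and 6.84 CPM in controls and at 11.97, 10.9, 11.6 and 10.7 CPM in mutants. Here mutant 4 rose with the others, and the gap between groups was wider than the spread within either. The log2 fold change was 0.75 (SE 0.12, edgeR adjusted p = 4.9e-04), and it was 0.72, 0.89 and 0.64 within lanes 5, 6 and 7. With the length offset it was 0.26 and did not pass (edgeR adjusted p = 0.096). Whether reads with several matches lowered the counts of Cox7c, or those of Ndufb4 and Atp5l, is not known. Cox4i1, the main form of subunit 4, the largest nuclear subunit, was at 296, 278, 303 and 346 CPM in controls and at 420, 502, 498 and 374 CPM in mutants. The groups did not overlap, the log2 fold change was 0.55 (SE 0.10, edgeR adjusted p = 0.0015), and with the length offset it was 0.24 and still passed. Cox7b rose by 0.57 (SE 0.09) and Ndufa4 by 0.55 (SE 0.08), both without overlap, and with the offset both fell short of the threshold, at 0.13 and 0.04. Cox6a1, the complex IV member with the highest control level per kilobase, was at 0.21 (SE 0.11), and Cox5a at 0.04 (SE 0.11) was lower with the offset (-0.39). Cox8c was listed at 0 in every library, Cox8b had a count in mutant 4 alone, and Cox7b2 stayed between 0.05 and 0.26 CPM.

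ATP synthase uses the proton gradient to make ATP. Of its 16 tested members 11 were higher, none was lower and the median was 0.42. Under the length offset 3 were higher (18.8%, against 16.7% of all genes), with a median of 0.13. All 4 members of the membrane part rose, with a median of 0.63, and so did all 4 of the peripheral stalk, which holds the head still against the rotor, with a median of 0.42. With the offset 2 of the 4 in the membrane part (median 0.27) and 1 of the 4 in the stalk (median 0.13) were higher. Atp5l was at 7.41, 5.97, 6.74 and 6.87 CPM in controls and at 11.1, 14.3, 13.5 and 8.0 CPM in mutants. These do not overlap, and the log2 fold change of 0.79 (SE 0.17, edgeR adjusted p = 0.0038) was the largest of the complex. With the offset it was 0.30 and did not pass (edgeR adjusted p = 0.10). Atp5mpl, a small proteolipid, was at 76.9, 69.0, 76.3 and 83.2 CPM in controls and at 110, 143, 137 and 97.8 CPM in mutants, also without overlap. Its log2 fold change was 0.67 (SE 0.12, edgeR adjusted p = 8.6e-04), and with the length offset it was 0.29 and still passed. Atp5j2, subunit f, rose by 0.59 (SE 0.13), and passed with the offset at 0.26. Atp5e, the epsilon subunit of the head, rose by 0.72 (SE 0.18) and did not pass with the offset. The alpha and beta subunits, which form the catalytic hexamer, stayed near control level. Atp5b, beta, was at 1137, 1151, 1230 and 1357 CPM in controls and at 1171, 1208, 1411 and 1056 CPM in mutants, with complete overlap and a log2 fold change of -0.01 (SE 0.09). Atp5a1, alpha, was at -0.09 (SE 0.07). Per kilobase Atp5b was the most abundant member, at 636 ± 52.6 CPM per kilobase in control and 632 ± 77.3 in mutant cortices (SD, n = 4), followed in controls by Cox6a1 at 418 ± 46.9, Atp5g3 at 406 ± 46.8 and Cox4i1 at 400 ± 37.6. The last 3 of these were within their spread of each other.

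**Figure D4:**
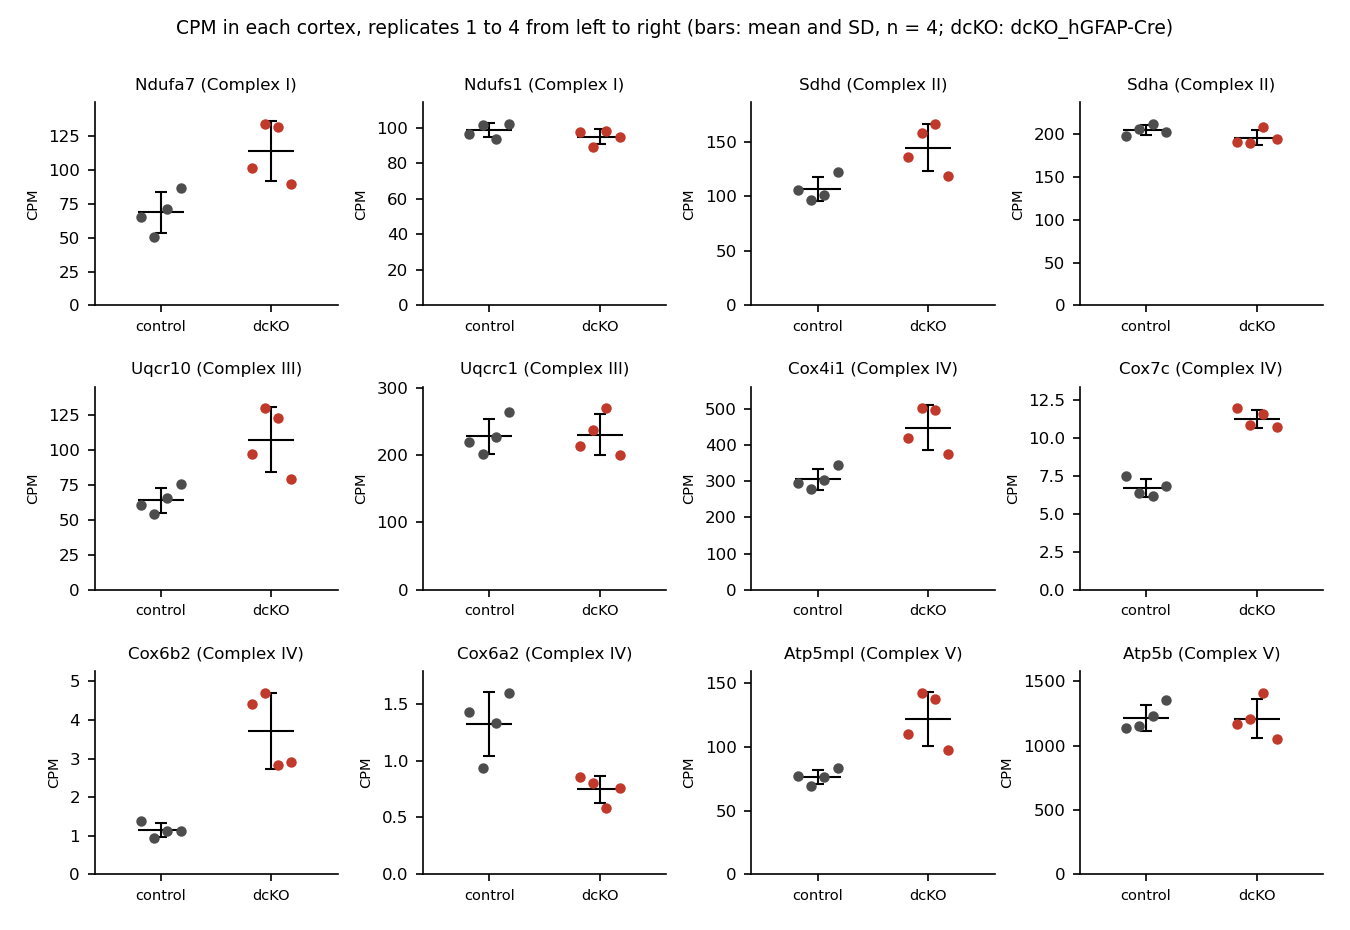
CPM of 12 members in each cortex, with 4 control samples in grey and 4 dcKO_hGFAP-Cre samples in red, and bars for the mean and SD; each axis starts at 0. Ndufs1, Sdha, Uqcrc1 and Atp5b overlap between groups, Sdhd overlaps in mutant 4, and Cox6b2, Cox7c and Cox6a2 separate completely.

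Across complexes I, II, III and V, the 14 core and catalytic members (the complex I core, Sdha, Sdhb, Uqcrc1, Uqcrc2, Uqcrfs1, Atp5a1 and Atp5b) held 2 higher genes and had a median log2 fold change of 0.08. The other 66 subunits held 43 higher genes and had a median of 0.41. The first group had a median transcript length of 1657 bases and the second of 727. With the length offset the counts were 0 of 14 and 12 of 66 (18.2%), against 16.7% of all genes. Role and length cannot be told apart in this split.

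Alternative isoforms were compared within each sample as the log2 ratio of their counts, which does not depend on library size. The ratios were not offset for GC content or length. Both genes were tested in 8 pairs, by exact two-sided permutation tests over 70 arrangements, for which the smallest possible p is 0.029. Adjusted over the 8 pairs, none passed. Cox6b2 made up 0.679%, 0.505%, 0.555% and 0.497% of the 6b counts in controls and 1.84%, 1.64%, 0.983% and 1.33% in mutants. The ratio to Cox6b1 was higher in 4 of 4 mutants, by 1.36 (log2, exact p = 0.029, adjusted 0.076). Cox6a2 made up 0.457% to 0.596% of the 6a counts in controls and 0.183% to 0.327% in mutants, a difference of -1.02 with the same exact p, lower in 4 of 4 mutants. Ndufa4l2, a paralog known to respond to hypoxia, was at 1.64% to 2.27% against 1.20% to 1.44%, a difference of -0.55, also with that p. Ndufa4l2 itself had a log2 fold change of 0.00 (SE 0.17), and its partner Ndufa4 rose. For Cox7a2l, a factor for supercomplexes, the ratio to Cox7a2 differed by -0.17 (exact p = 0.057, adjusted 0.11), and for Atp5g1 to Atp5g3, which encode the same c-ring protein, by -0.26 (exact p = 0.086, adjusted 0.14). The pairs Cox4i2 to Cox4i1, Cox7a1 to Cox7a2 and Atp5g2 to Atp5g3 differed by -0.24, 0.09 and 0.02, with exact p of 0.17, 0.91 and 0.86. In the fit with the length offset, Atp5g1 was at 0.16 and Atp5g3 at -0.06, the reverse of their ratio. The order held for Ndufa4l2 (-0.25) and Ndufa4 (0.04), Cox6b2 (1.32) and Cox6b1 (-0.09), and Cox6a2 (-1.18) and Cox6a1 (-0.15). Some genes of the pairs rest on few counts: Cox4i2 had 18 to 54, Cox7a1 5 to 32 and Atp5g2 28 to 57 counts per library, and none of the 3 passed the edgeR test. Whether reads with several matches lowered these counts is not known.

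**Figure D5:**
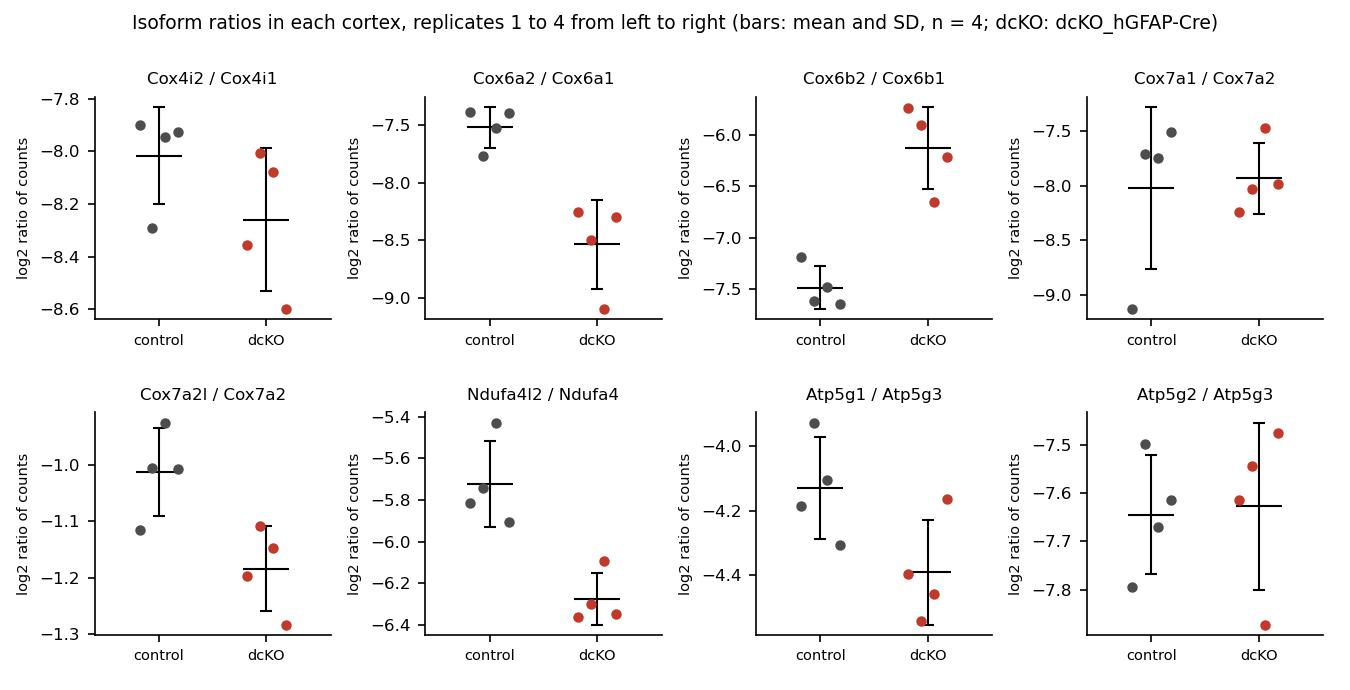
Log2 ratio of counts for 8 pairs of isoforms in each cortex, with 4 control samples in grey and 4 dcKO_hGFAP-Cre samples in red, and bars for the mean and SD; axes do not start at 0. Cox6b2 over Cox6b1 is higher in every mutant, and Cox6a2 over Cox6a1 and Ndufa4l2 over Ndufa4 are lower in every mutant.

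Other mitochondrial genes were read from lists chosen beside the members, and no list was tested as a set. Of all genes tested, 18.6% were higher and 18.9% lower, and with the offset 16.7% and 18.1%. Ndufab1, the carrier protein of complex I, and Cyc1, cytochrome c1 of complex III, are subunits that the name rule misses. Neither passed, at 0.26 (SE 0.13) and 0.17 (SE 0.12). Of the 13 subunits encoded by mitochondrial DNA, 7 were tested and 1, the complex IV subunit mt-Co1, was higher, at 4988 to 7558 CPM in controls and 7922 to 12383 in mutants (log2 fold change 0.54, SE 0.18). The median of the 7 was 0.44. Under the offset it was -0.02, mt-Co1 did not pass (0.20), and mt-Nd6, a complex I subunit, was lower at -0.33. Among the rest, 5 (mt-Nd4l, mt-Co2, mt-Co3, mt-Atp6 and mt-Atp8) are listed at 0 in every library. Whether the counting rule left out their reads is not known, and the shares that follow hold no reads of these genes. Counts from the mitochondrial genome made up 3.21%, 3.23%, 2.06% and 2.60% of the total in controls and 3.59%, 5.47%, 4.27% and 3.57% in mutants. Assembly factors, which help build the complexes, had 17 of 44 tested genes higher and 3 lower, with a median of 0.19. With the length offset 8 were higher (18.2%, against 16.7% of all genes) and 2 were lower, with a median of 0.07. The assembly factors with the smallest p were Sdhaf3 at 0.73 (SE 0.13), Sdhaf4 at 0.62 (SE 0.11) and Ndufaf7 at 0.45 (SE 0.08). Of these, Sdhaf3 and Ndufaf7 also passed with the length offset. Of 4 electron carriers Etfa, which feeds electrons from fatty acid oxidation, was higher at 0.41 (SE 0.11). With the offset Etfa did not pass (0.13), and cytochrome c (Cycs), at -0.42 (SE 0.17) and short of the threshold without it, was lower at -0.53.

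Tricarboxylic acid cycle enzymes make the NADH and succinate that feed the chain. Of 13, 1 was higher and 3 were lower, with a median of -0.06, where 18.6% of all genes were higher and 18.9% lower. Citrate synthase (Cs) was at 341 to 378 CPM in controls and 246 to 299 CPM in mutants, a log2 fold change of -0.45 (SE 0.08, edgeR adjusted p = 8.2e-04), and -0.42 with the length offset. Ogdh fell by 0.27 (SE 0.08) and Sucla2 fell by 0.22 (SE 0.07). Of 13 regulators of mitochondrial biogenesis 1 was higher and 1 was lower. Tfb1m, a mitochondrial rRNA methyltransferase, rose by 0.74 (SE 0.17) and the coactivator Pprc1 fell by 0.65 (SE 0.20). Of 13 membrane and chaperone genes 1 was higher and 1 was lower. The chaperonin Hspd1 fell by 0.31 (SE 0.08) while its partner Hspe1 rose by 0.56 (SE 0.12). Under the offset Sucla2 and Hspd1 also passed as lower, and Ogdh, Tfb1m, Pprc1 and Hspe1 did not pass. Over the whole lists, 5 of the 13 cycle enzymes were then lower (38.5%, against 18.1% of all genes) and none was higher. Of the 13 regulators 3 were higher (23.1%, against 16.7% of all genes) and none was lower. Of the 13 membrane and chaperone genes 1 was higher and 3 were lower. For scale, cytosolic ribosomal protein genes, another set of short transcripts, had 56 of 81 tested members higher and none lower, with a median of 0.53. With the length offset 29 were higher (35.8%, against 16.7% of all genes). Mitochondrial ribosomal protein genes had 26 of 77 higher, with a median of 0.24, and 11 with the offset (14.3%).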

How the data were processed

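RNA was extracted with TRIZOL from 4 control and 4 dcKO_hGFAP-Cre P3 cortices, and libraries were made with the TruSeq RNA v2 kit, which does not mark strand. The authors aligned reads to mm10 and deposited raw counts per gene from featureCounts, without normalization. The aligner, the annotation and the rule for reads with several matches are not given in the sources used here, so values of members with near-identical copies elsewhere in the genome, and of the 37 tested members that overlap another annotated gene, are uncertain.

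Of 48709 Ensembl identifiers, 48349 matched GENCODE M21 (same build), which gave symbols, coordinates, and the length and GC content of 1 transcript per gene (the principal one, known for 16480 tested genes). Counts were tested with edgeR 4.0.16 (R 4.3.3): TMM, default filter (minimum count 10), robust quasi-likelihood fit, group as the only term, Benjamini-Hochberg adjustment over 16525 genes, threshold 0.05. Standard errors were derived from each fold change and the F statistic of its test. Log2 CPM used a prior count of 2. The fit was first run on simulated counts with 200 changed genes. These held no trend with GC content or length between samples, so they do not bear on how length was treated. Alternatives were DESeq2 1.42.0, limma-voom (limma 3.58.1), other scalings and filters, replicate number or lane as block, a smooth offset for GC content and length (mgcv 1.9.3), and each sample left out. Complexes and parts were assigned by symbol. Up to 4 members per complex and direction with the largest significant changes, the most abundant member per kilobase, both genes of each isoform pair, and up to 3 genes per pathway list by p were named; Ndufv2, Ndufs1, Ndufb6, Sdha, Sdhc, Uqcrb, Uqcrc1, Uqcrfs1, Ndufa1, Ndufa10, Ndufs5, Cox5a, Atp5a1, Ndufab1, Cyc1, Cycs, mt-Nd6, Ndufb2, Ndufs4 and Ndufv3 were added after their values were seen. Members and lists were chosen with earlier results of these data known. No 2 replicates agreed within sampling noise.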

Additional observations from a re-analysis of the deposited data

Results flagged for a closer look

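Samples far from the other 3 of their group, by Dixon's test at the 95% level, were looked for among 58 results in each group of 4, which is 116 groups. Chance gives about 5.8 in 116, and 5 were found. Atp5g1 was high in mutant 3, at 19.2 CPM, with the next mutant at 17.1. Ogdh was low in mutant 2, at 156 CPM, with the next at 184. Sucla2 was high in control 2, at 97.7 CPM, with the next at 93.7. The log2 ratio of Cox4i2 to Cox4i1 was low in control 2, at -8.29, with the next control at -7.95. The log2 ratio of Cox7a1 to Cox7a2 was low in control 1, at -9.13, with the next at -7.75, and rests on 5 counts of Cox7a1. None of these samples is mutant 4.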

How the results depend on the processing

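The count of higher members stayed between 38 and 61, with 1 lower, under DESeq2, limma-voom, other scalings and filters, and replicate number or lane as a block. It did not under the offset for GC content and transcript length, with 12 higher and 5 lower. An offset learned from genes other than members and ribosomal protein genes, added after seeing the data, gave 14 higher and 3 lower, and the replicate block with the offset 7 and 6. Under these 3 settings, in that order, the median log2 fold change was 0.0211, 0.0402 and 0.0199 for complex I, 0.0628, 0.0835 and 0.0592 for complex III, 0.0351, 0.06001 and 0.0359 for complex IV, and 0.127, 0.138 and 0.127 for complex V. The 12 members higher under the offset were all among the 46. The offset assumes that neither length nor GC content itself marks genes that changed. The cause of the length trend was not tested, and length was not offset without GC content. Leaving out 1 sample gave 30 to 60 higher and 0 to 1 lower members, 30 without control 2 and 60 without mutant 4.

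Same-numbered samples did not deviate together (correlations 0.20, -0.16, 0.06 and -0.21), and differently numbered ones ran from -0.39 to 0.46. Same-numbered samples shared a lane, and these values cannot tell whether the numbers also pair samples in another way. The replicate block gave 38 higher and 1 lower member.

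Among single genes, these changed direction under the same 3 settings: Sdhb (-0.141, -0.135 and -0.140), Cox6a1 (-0.147, -0.116 and -0.148), Cox6b1 (-0.0852, -0.0562 and -0.0853), Atp5g3 (-0.0566, -0.0344 and -0.0540) and Ndufa4l2 (-0.248, -0.237 and -0.244), and Cox4i2 under the first and the last (-0.0183 and -0.0370). Ndufa4l2, at 0.00 by the test of the report, was also below 0 with DESeq2's size factors (-0.00202), no filter (-0.00362), DESeq2 (-0.00364), limma-voom (-0.0122), the replicate block (-0.00171) and lane (-0.000454). Atp5b was above 0 with library totals (0.114) and at least 10 counts in every sample (0.00758). Leaving out 1 sample moved Atp5b between -0.0920 and 0.0664, Ndufa4l2 between -0.101 and 0.0847, the ratio of Cox7a1 to Cox7a2 between -0.281 and 0.259 and that of Atp5g2 to Atp5g3 between -0.0330 and 0.0992. The cause of these changes was not tested. Of the other single-gene results, 735 kept their call, 108 lost it and 2 gained it. At this depth, isoforms near 1 CPM rest on fewer than 60 counts per library in controls.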
